A study of Rattus norvegicus with 12 samples.

Results

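The 2 control groups of a rat stroke study were compared to describe the regional identity of the tissue they came from. They make up 6 of the 12 RNA sequencing libraries of the study, 3 labelled LN and 3 labelled PN, and they were chosen as the uninjured libraries whose codes begin with the letters of the stroke groups of each site. All 12 libraries came from Sprague Dawley rats at postnatal day 21. Both groups used here are labelled sham, with no allele, drug or other agent. The other 6 libraries, 3 of middle cerebral artery occlusion (MCAO, a blockage of the artery that supplies the lateral forebrain) and 3 of pontine infarction (an infarct of the ventral brainstem), were used only to read the same pair of sites in other samples. The labels give the tissue of every library only as brain. The forebrain origin of LN and the brainstem origin of PN are read from the shared first code letter and were therefore checked against marker genes. Site, type of sham operation and any cohort cannot be told apart, because each group holds 1 of each. No label says that the 3 libraries of a group came from separate animals, so p-values measure the spread between these samples, which may be technical. In tissue of mixed cells, fewer cells of a type and less RNA per cell cannot be told apart.

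The brain keeps a molecular record of its embryonic map. Homeodomain and related transcription factors that divide the neural tube into telencephalon, midbrain and hindbrain stay active in the neurons born there, and Hox genes mark successive segments of the hindbrain and spinal cord but are silent in front of it. Neuron classes add to this map: glutamatergic neurons of the cortex and spiny projection neurons of the striatum in the telencephalon, and, in the brainstem, neurons that make serotonin, noradrenaline or dopamine, glycinergic interneurons, cranial motor neurons and large axon tracts.

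Expression is given as CPM, counts scaled to library size, so that a level is comparable for 1 gene across libraries but not between genes. Values of single genes also carry a scaling factor per library, while sums over a list are scaled by total counts alone. Such sums take in every listed symbol that was matched, tested or not. The sham libraries held 22766142 to 40400676 counts each, and a single count was worth 0.0248 to 0.0439 CPM. Correlations of log2 values across genes were 0.990 to 0.993 between LN libraries, 0.987 to 0.992 between PN libraries and 0.931 to 0.942 between the groups. Genes on the X chromosome could not be used: 591 of 606 symbols matched to it were listed at 0 in all 12 libraries, against 1052 of 16016 symbols on the other chromosomes. A gene was called higher in a group at an adjusted p under 0.05 by the edgeR quasi-likelihood test, which gave every adjusted p below unless another tool or fit is named.

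Of 15933 genes tested, 6365 were called, 39.9% of them. There were 3301 genes higher in LN (20.7%) and 3064 higher in PN (19.2%), and the groups did not overlap for 8301 genes (52.1%). Most differences were modest. A difference of more than 2-fold was fitted for 1447 of the genes called higher in LN and 1297 of those called higher in PN, and one of more than 32-fold for 75 and 91. The median log2 difference over all genes tested was -0.01. With no scaling factor beyond total counts this median moved to -0.15, and the share of calls that were higher in LN went from 51.9% to 37.4%. A fit over all 12 libraries called 3625 genes. Among genes named below, it ended the calls for Gad1, Vamp2, Slc17a7, Mfge8, Hapln1, Gphn, Lgals3, Tagln, Myh11, Ttr, Trh, Parm1 and Cish, with adjusted p from 0.0523 to 0.399.

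**Figure D1:**
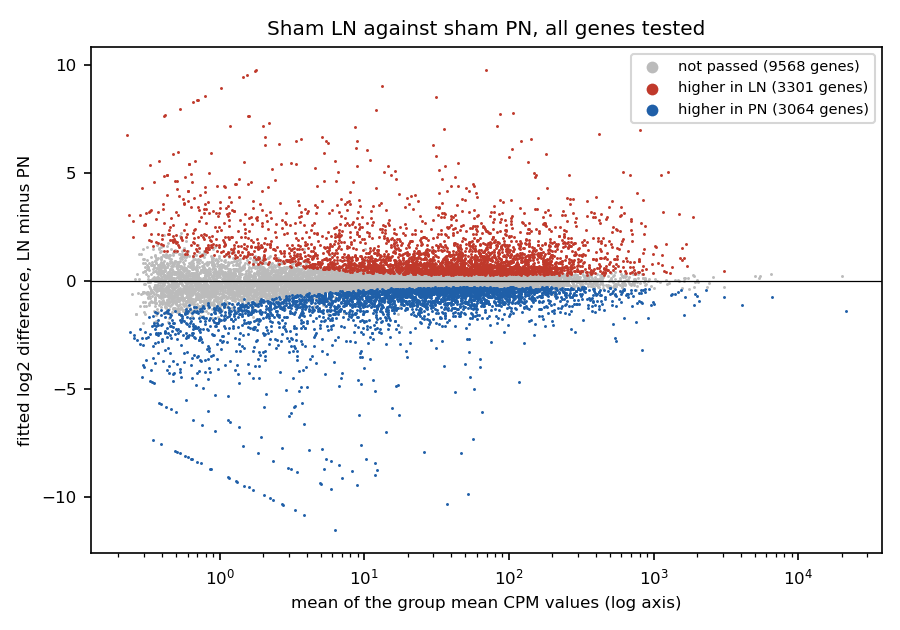
Each point is 1 of the 15933 genes tested, with the mean of the LN and PN group means in CPM on a log x axis and the fitted log2 difference, LN minus PN, on the y axis. Red points are the 3301 genes called higher in LN, blue points the 3064 called higher in PN and grey points the 9568 that did not pass. The straight rows of points at the edges are genes with no count in 1 group, whose fitted difference is set by the level in the other.

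Transcription factors of the telencephalon were higher in LN. Of 28 tested, 26 were higher in LN, none was higher in PN and 2 did not pass, with a median log2 difference of 3.85. One of them, Lhx8, had no count in PN. It and members with few PN counts, such as Emx1 and Fezf2, passed the filter on low counts through LN alone and could be called in 1 direction only. Emx1, a factor of the cortical neuroepithelium and its excitatory neurons, had 26.2, 32.7 and 20.9 CPM in LN and 0.0801, 0 and 0.0667 CPM in PN, a 509.7-fold difference (log2 difference 8.99, SE 0.38, adjusted p = 9.59e-08). It was at or near the limit of detection in PN. Tbr1, a factor of deep-layer cortical neurons, had 41.9, 93.8 and 50.6 CPM in LN and 0.24, 0.245 and 0.0334 CPM in PN. The second library was the highest of LN, and the groups still did not overlap. Fezf2, which specifies neurons that project to the brainstem and spinal cord, was 239-fold higher in LN.

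Factors of the ventral telencephalon were also higher in LN. Dlx1 and Dlx6, which drive the formation of GABA neurons, had 13.5, 17.8 and 20.7 CPM and 12.8, 6.0 and 11.3 CPM in LN. In PN, Dlx1 had 1.04, 0.0701 and 0.267 CPM, and Dlx6 was seen in the first library alone, at 0.320 CPM. Lhx6, a factor of cortical interneurons from the medial ganglionic eminence, was 65.3-fold higher in LN. Lhx8, a factor of basal forebrain cholinergic neurons, had 5.86, 1.1 and 3.76 CPM in LN and no count in PN, which puts it at least 107-fold higher in LN (floor of 3 counts over the group). The members that did not pass were Sp8 and Nkx2-1, a factor of the ventral forebrain and hypothalamus, which had 3.19, 0.549 and 1.81 CPM in LN and 9.17, 3.68 and 0 CPM in PN. The PN libraries thus differed in Nkx2-1 among themselves more than the groups did.

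**Figure D2:**
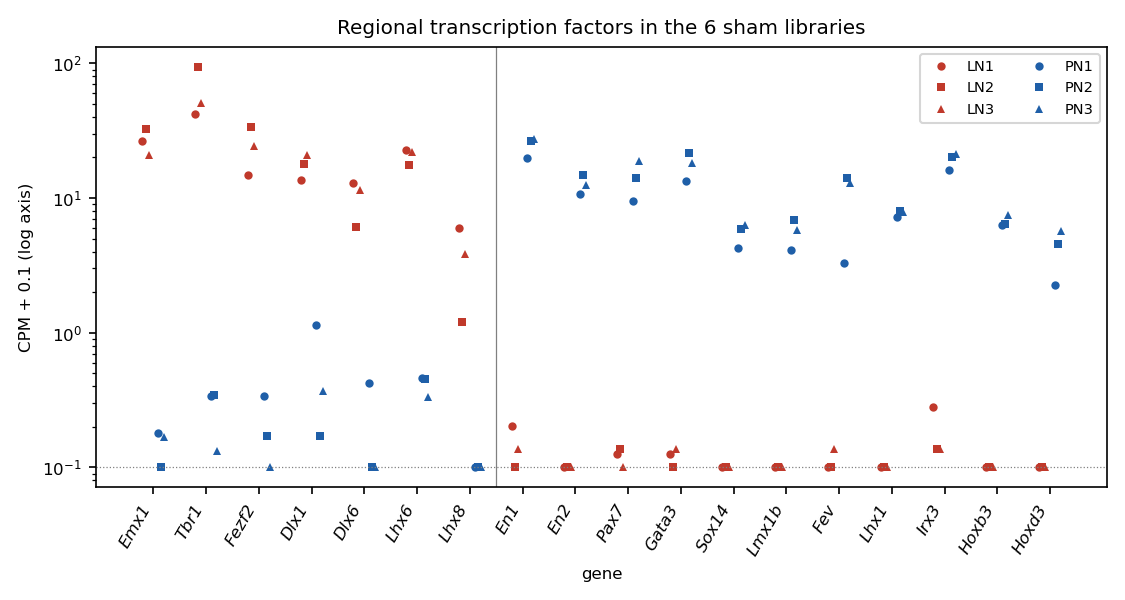
Level of 18 regional transcription factor genes in each sham library, in CPM plus 0.1 on a log axis, with LN in red, PN in blue and circles, squares and triangles for replicates 1, 2 and 3. The dotted line marks 0 CPM, and the genes left of the vertical line were called higher in LN and those right of it higher in PN. LN and PN libraries do not overlap for any gene shown.

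Markers of forebrain neuron classes were higher in LN as well. Of 25 markers of cortical projection neurons, 18 were higher in LN, 3 were higher in PN and 4 did not pass, and of 24 markers of striatal projection neurons, 22 were higher in LN and none in PN, with median log2 differences of 1.64 and 3.08. Drd1, the dopamine receptor of the direct pathway, had 249, 119.7 and 253 CPM in LN and 3.68, 2.91 and 2.57 CPM in PN (log2 difference 6.09, SE 0.32, adjusted p = 2.56e-07). Adora2a, the adenosine receptor of the indirect pathway, had 453, 189 and 423 CPM in LN and 5.17, 5.78 and 7.31 CPM in PN. In both genes the second LN library was the lowest, and it was still far above every PN library. Drd2, the dopamine receptor of the indirect pathway, was 6.72-fold higher in LN, and PN held 26.5, 30.1 and 23.7 CPM. The members that did not pass were Ikzf1 and Ebf1. The cortical markers higher in PN were Parm1, Scnn1a and the neurotensin receptor gene Ntsr1, and the call for Parm1 was lost without the third PN library (adjusted p = 0.0564).

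Genes of the postsynaptic side of forebrain spines were all higher in LN, 20 of 20 tested, with a median log2 difference of 3.01. Over all genes tested, 20.7% were higher in LN. The list names forebrain genes and was chosen with earlier results of these data known, so its count tests nothing. Camk2a and Nrgn are also in the list of cortical markers, and Arc and Homer1 are also counted as immediate early genes. Ddn, which encodes dendrin of the dendritic cytoskeleton, had 1438, 1812 and 1572 CPM in LN and 15.1, 12.9 and 10.9 CPM in PN. Itpka, an inositol trisphosphate kinase of spines, was 144-fold higher in LN (adjusted p = 5.79e-09). Camk2a, the alpha subunit of the calcium-dependent kinase of synaptic plasticity, had 1211, 1626 and 1129 CPM in LN and 51.8, 43.8 and 38.5 CPM in PN, a 29.6-fold difference. The LN libraries were close to each other for each of these genes and no PN library came near them. Summed over the list, LN held 13968 ± 609.8 CPM and PN 1434 ± 94.2 CPM (SD, n = 3 each).

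Not every marker list of the forebrain moved to LN. Among 17 markers of cortical interneurons tested, 9 were higher in LN and 5 were higher in PN. Cort, which encodes cortistatin, was 87.4-fold higher in LN, and Cck, which encodes cholecystokinin, was 7.79-fold higher. Cort had only 6 counts in all of PN, at 0, 0.175 and 0.0334 CPM. It passed the filter on low counts through LN alone, could be called in 1 direction only, and the size of its fold is uncertain. Calb2, which encodes calretinin, went the other way with very even libraries, 7.4, 9.23 and 9.94 CPM in LN and 228, 223 and 227 CPM in PN. Of 10 hippocampal markers tested, 2 were higher in LN and 4 in PN. C1ql2, a synaptic C1q-like protein of dentate granule cells, had 5.12, 2.67 and 4.56 CPM in LN and 21.5, 34.4 and 38.4 CPM in PN. C1ql3 was 4.07-fold higher in LN.

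Next came transcription factors of the midbrain and the isthmus, the border of midbrain and hindbrain. Of 17 tested, 16 were higher in PN, and the remaining 1, Gbx2, did not pass. The median log2 difference was -8.96, or -6.73 with the 7 members that had no count in LN set at their lower bound. Those 7, and members with only a few LN counts such as En1 and Gata3, passed the filter on low counts through PN alone. They could be called in that direction only, and 3 of the 20 genes listed did not pass the filter. En1, which patterns the midbrain and first hindbrain segment, had 0.103, 0 and 0.0376 CPM in LN and 19.8, 26.4 and 27.2 CPM in PN (log2 difference -8.73, SE 0.37, adjusted p = 9.42e-08). En2, its paralogue, had no count in LN and 10.7, 14.6 and 12.4 CPM in PN, at least 390.3-fold higher. Gata3, a factor of inhibitory and serotonergic brainstem neurons, had 13.4, 21.6 and 18.1 CPM in PN and 2 counts in all of LN, a ratio of 829 with a 95% counting interval of 229 to 6855. Pax7, a factor of the dorsal midbrain, had 9.33, 14 and 18.6 CPM in PN. Sox14, a factor of midbrain and diencephalic inhibitory neurons, had 4.16, 5.78 and 6.17 CPM in PN and no count in LN. In all 5 genes, the first PN library was the lowest of its group, and the groups were far apart.

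Factors of the hindbrain were counted in the same way. Of 31 tested, 27 were higher in PN, 2 in LN and 2 did not pass, with a median log2 difference of -7.57, or -6.63 with 6 members at their bound. Those 6 had no count in LN, and they and members with few LN counts, such as En1 and Gata3, could be called in 1 direction only. Of the 42 genes listed 41 matched the table, of which 10 were not tested. Lhx1, a factor of dorsal and ventral hindbrain interneurons, had 7.17, 7.92 and 7.74 CPM in PN and no count in LN, at least 236-fold higher. Lmx1b, needed for serotonin neurons, had 4.04, 6.8 and 5.7 CPM in PN and no count in LN. Irx3, an Iroquois factor that stays active behind the forebrain, had 0.18, 0.0366 and 0.0376 CPM in LN and 16.1 to 21.1 CPM in PN. One of the members higher in LN was Isl1, which is shared by striatal and motor neurons. The call for Isl1 was lost by DESeq2 (adjusted p = 0.0557) and without the first or the third LN or the second or the third PN library.

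Hox genes were present in PN and all but absent in LN. The table holds 35 Hox symbols. Over all of them, the LN libraries held 9, 6 and 2 counts and the PN libraries 597, 902 and 1178. The 9 Hox genes that passed the filter on low counts were all called higher in PN, but with few or no counts in LN they could only pass through PN. Hoxb3 had 6.21, 6.31 and 7.37 CPM there and no count in LN, at least 206-fold higher. Hoxb2 had 2.48, 5.32 and 6.31 CPM in PN and 1 count in LN. Hoxd3 had 2.16, 4.48 and 5.57 CPM in PN, and Hoxb5 had 3.0, 1.89 and 3.04 CPM, both with no count in LN. For Hoxb2 and Hoxd3 the first PN library was well below the other PN libraries, while Hoxb3 was even.

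The clusters did not contribute alike. Hoxb2 to Hoxb5, Hoxc4, Hoxc5, Hoxd1, Hoxd3 and Hoxd4 were the genes tested, whereas the 10 Hoxa symbols held 12 counts in all of PN: 4 for Hoxa2, 6 for Hoxa3 and 2 for Hoxa5. Hoxb4 had 0.841, 1.44 and 1.93 CPM in PN and Hoxc4 had 4.44, 5.95 and 7.31 CPM. Hoxd4 had 2.68, 3.26 and 5.07 CPM in PN, Hoxd1 had 1.28, 2.0 and 1.53 CPM and Hoxc5 had 0.48, 0.876 and 1.0 CPM. Hoxd1 was the one tested member with more than 1 count in LN, 0.154, 0.11 and 0 CPM. The 21 symbols of paralogue groups 6 and above, which belong to the spinal cord, held 3 counts in PN, all of Hoxc6, and 5 counts in LN, all of Hoxc13. Signal in PN thus ended at paralogue group 5 apart from these 3 counts. In the embryo, Hox genes of groups 4 and 5 begin in the caudal hindbrain, which becomes the medulla. Their counts are a measured property of all 3 PN libraries, and how much tissue behind the pons the samples held was not tested.

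**Figure D3:**
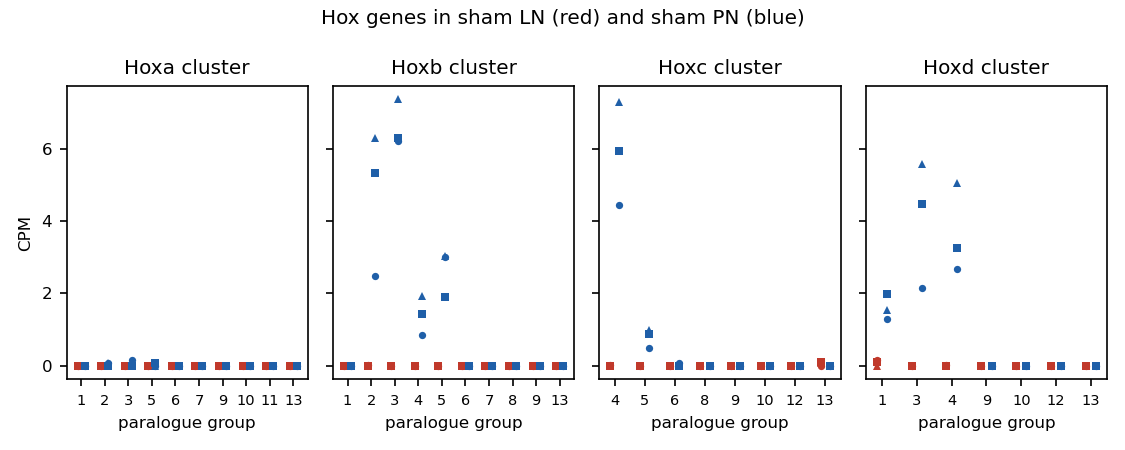
Level in CPM of the 35 Hox symbols of the table in each sham library, by cluster and paralogue group, with LN in red, PN in blue and circles, squares and triangles for replicates 1, 2 and 3. PN signal lies in Hoxb2 to Hoxb5, Hoxc4, Hoxc5, Hoxd1, Hoxd3 and Hoxd4, while every LN point lies at or near 0, as do the Hoxa points of both groups.

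Promoters of such regional factors are shown because their members moved together between the groups. Sequences are from RefSeq (assembly GRCr8, with 250 bases before and 50 after the start), printed 5′ to 3′ in the gene's direction. The assembly is newer than the one the counts were made on, so genes were matched by symbol. CpG dinucleotides are in capitals. Emx1 (chr4:119282442-119282741, plus strand) and Tbr1 (chr3:66759553-66759852, plus strand) were higher in LN, and Hoxd3 (chr3:80045876-80046175, plus strand) and Fev (chr9:83891669-83891968, minus strand) were higher in PN.
Emx1: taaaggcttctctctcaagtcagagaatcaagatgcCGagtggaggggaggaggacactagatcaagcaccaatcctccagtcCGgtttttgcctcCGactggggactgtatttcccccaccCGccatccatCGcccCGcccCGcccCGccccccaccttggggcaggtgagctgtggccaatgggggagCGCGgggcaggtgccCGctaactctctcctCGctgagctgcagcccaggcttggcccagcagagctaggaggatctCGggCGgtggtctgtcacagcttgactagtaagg
Tbr1: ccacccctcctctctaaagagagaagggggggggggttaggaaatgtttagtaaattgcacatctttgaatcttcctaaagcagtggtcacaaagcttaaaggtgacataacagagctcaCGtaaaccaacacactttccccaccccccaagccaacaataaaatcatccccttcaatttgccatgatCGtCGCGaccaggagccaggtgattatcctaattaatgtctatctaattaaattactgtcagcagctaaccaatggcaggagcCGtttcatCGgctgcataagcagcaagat
Hoxd3: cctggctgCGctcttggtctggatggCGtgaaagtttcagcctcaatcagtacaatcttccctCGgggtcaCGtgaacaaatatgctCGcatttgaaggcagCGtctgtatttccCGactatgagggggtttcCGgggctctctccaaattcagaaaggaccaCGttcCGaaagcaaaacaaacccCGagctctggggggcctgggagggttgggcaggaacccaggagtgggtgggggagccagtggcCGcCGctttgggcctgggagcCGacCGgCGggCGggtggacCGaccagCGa
Fev: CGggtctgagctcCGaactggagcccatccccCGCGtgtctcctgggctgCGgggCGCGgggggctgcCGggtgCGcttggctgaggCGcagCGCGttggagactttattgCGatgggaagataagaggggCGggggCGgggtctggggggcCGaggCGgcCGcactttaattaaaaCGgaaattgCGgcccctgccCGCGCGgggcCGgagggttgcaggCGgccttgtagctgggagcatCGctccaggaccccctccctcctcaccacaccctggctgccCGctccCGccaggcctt
These 4 promoters hold 14, 6, 19 and 28 CpG dinucleotides. The median was 20 for the 20 telencephalon factors with a promoter in the table, 22 for the 13 midbrain and isthmus factors and 23 for the 21 hindbrain factors. Over the 10543 genes tested that had a promoter the median was also 20.

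Neurons that make monoamines were read in PN. Of 11 genes of serotonin neurons tested, 10 were higher in PN and 1, the autoreceptor gene Htr1a, did not pass, with a median log2 difference of -5.01. Tph2, the enzyme that starts serotonin synthesis in the brain, had 4.32, 2.38 and 3.58 CPM in LN and 40.4, 159 and 136 CPM in PN (log2 difference -5.01, SE 0.48, adjusted p = 1.74e-05). Slc6a4, the serotonin transporter, had 0.0257, 0.0366 and 0.301 CPM in LN and 28.6, 143 and 143 CPM in PN. Fev, the factor that sets serotonin identity, had 3.2, 14.1 and 12.7 CPM in PN and 1 count in LN. The first PN library was the lowest in all 3 genes, and it was the lowest in 11 of 11 members of the list.

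Catecholamine genes gave a like picture, 11 of 12 tested higher in PN, with a median log2 difference of -4.60. Among these, 2 had no count in LN and could be called in 1 direction only, as could 1 of the serotonin genes. The same held for members with few LN counts, such as Slc6a3 here and Fev among the serotonin genes. Slc6a3, the dopamine transporter, which marks dopamine neurons of the midbrain, had 0.0514, 0.0366 and 0.0753 CPM in LN and 56.4, 109.95 and 56 CPM in PN, a 1275-fold difference. Its LN values were near the limit of detection, so the size of this fold is uncertain. Th, the enzyme that makes the dopamine precursor, had 2.34, 1.76 and 1.62 CPM in LN and 91.6, 176 and 121 CPM in PN. Dbh, which turns dopamine into noradrenaline, had 0.0514, 0.403 and 0.414 CPM in LN and 8.77, 4.69 and 4.87 CPM in PN. Slc6a2, the noradrenaline transporter, had 3.36, 2.1 and 1.4 CPM in PN and no count in LN. Dopamine transporter RNA was highest in the second PN library and noradrenergic RNA in the first, so the PN libraries differed in order for the neighbouring cell groups. PN is read as pontine from its code, and the midbrain dopamine neuron markers Slc6a3, Pitx3 and Foxa2 were nevertheless detected in all 3 PN libraries. Pitx3 had 2.6, 3.43 and 1.87 CPM and Foxa2 had 1.2, 3.96 and 2.64 CPM. By these genes and the Hox genes, PN is described below as brainstem.

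Inhibitory and motor genes of the brainstem were higher in PN in part. Of 8 genes of glycinergic neurons and glycine receptors tested, 4 were higher in PN, 2 were higher in LN and 2 did not pass. Slc6a5, the transporter that loads glycinergic neurons, had 2.01, 2.16 and 2.97 CPM in LN and 102, 61.6 and 85.5 CPM in PN. Glra1, the adult glycine receptor subunit, had 0.951, 0.22 and 0.0753 CPM in LN and 32.4, 34.6 and 35.9 CPM in PN, a 72.7-fold difference. Glrb, the shared beta subunit, did not pass (log2 difference -0.07, SE 0.16, adjusted p = 0.762). The 2 members higher in LN were Gldc, an enzyme that breaks down glycine, 3.95-fold, and Gphn, which encodes the receptor scaffold gephyrin, 1.56-fold. Of 12 cholinergic and motor neuron genes tested, 7 were higher in PN and 2 in LN. Ret, a receptor of motor and catecholamine neurons, was 21.5-fold higher in PN and Prph, which encodes peripherin of motor and sensory neurons, 15.2-fold. Chat, the enzyme that makes acetylcholine, did not pass, with 11, 5.53 and 12 CPM in LN and 10.5, 12.5 and 15.2 CPM in PN.

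The vesicular transporters split the glutamate neurons. Slc17a7, the cortical type, had 783, 1593 and 938 CPM in LN and 215, 294 and 409 CPM in PN, and Slc17a6, the type of brainstem and thalamus, had 8.95, 10.8 and 8.96 CPM in LN and 146, 125 and 75.6 CPM in PN. Slc17a7 was 3.61-fold higher in LN and Slc17a6 12.1-fold higher in PN. Slc32a1, the vesicular transporter of GABA and glycine, did not differ beyond its error (log2 difference 0.06, SE 0.19, adjusted p = 0.832), and Gad1, a GABA-synthesizing enzyme, was 1.51-fold higher in LN.

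Receptor and channel genes showed subunit by subunit differences. Of 17 ionotropic glutamate receptor subunits tested, 10 were higher in LN and 5 in PN, and of 11 subunits of the GABA-A receptor, 6 were higher in LN and none in PN. Grin2b, an NMDA receptor subunit, had 166, 191 and 178 CPM in LN and 29.3, 26.6 and 30.6 CPM in PN. Gabrd, the delta subunit of receptors outside the synapse, had 121, 103 and 99 CPM in LN and 5.65, 3.75 and 5.14 CPM in PN. Of 36 voltage-gated sodium and potassium channel genes, 22 were higher in LN and 9 in PN. Kcnh3, a potassium channel of the forebrain, had 207, 238 and 194 CPM in LN and 2.0, 0.56 and 0.467 CPM in PN, and Kcnj4, an inward rectifier, was 89.8-fold higher in LN. The PN-higher channel genes included Kcnc1 and Kcnc4, which serve fast firing.

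Release genes of the synaptic vesicle were mostly higher in LN, 15 of 27 tested, with 4 higher in PN. The 4 were Syt2, Vamp1, Cplx1 and Sv2a. The call for Cplx1 was lost without the third LN or the second or the third PN library and with a replicate block, and that for Sv2a without the third LN library. Syt2, the calcium sensor of fast brainstem synapses, had 103, 75.2 and 56.1 CPM in LN and 248, 273 and 284 CPM in PN, while its paralogue Syt1 was 2.76-fold higher in LN. Vamp1 had 376, 335 and 248 CPM in LN and 1224, 1132 and 1231 CPM in PN, while Vamp2 was 1.48-fold higher in LN. In both pairs, the isoform known from brainstem and spinal cord was higher in PN and the one known from the forebrain was higher in LN.

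Genes of large axons were higher in PN, 10 of 12 tested, with a median log2 difference of -0.78, and the other 2, Thy1 and Vsnl1, did not pass. Nefh, the heavy neurofilament subunit of thick myelinated axons, had 162, 188 and 101 CPM in LN and 833, 915 and 1054 CPM in PN (log2 difference -2.63, SE 0.21, adjusted p = 5.22e-06). Spp1, which encodes osteopontin, a secreted protein made by some large brainstem neurons and by reactive microglia, had 0.771, 0.879 and 0.452 CPM in LN and 123, 98.6 and 116 CPM in PN, a 158-fold difference. It is also a member of the list of injury genes, of which 8 of 13 tested were higher in PN. Gfap, the filament of fibrous astrocytes, held 80.7% of the summed level of that list. Of the members of that list that reactive microglia share with Spp1, Lgals3, which encodes galectin 3, was 4.62-fold higher in PN, and Gpnmb and Cd68 did not pass. None of the 13 was called higher in LN.

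Neuropeptide genes were divided, 9 of 25 tested higher in LN and 9 in PN. Penk, which encodes the enkephalins of indirect-pathway neurons, had 839, 399 and 790.2 CPM in LN and 99.1, 82 and 78.3 CPM in PN. Pdyn, which encodes dynorphin, was 8.13-fold higher in LN. Calca, which encodes calcitonin gene-related peptide of motor neurons and the parabrachial area, had 0.231, 0.146 and 0.753 CPM in LN and 6.25, 2.17 and 2.34 CPM in PN.

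Immediate early genes, which neurons switch on within minutes of activity, were mostly higher in LN. Of 20 tested, 13 were higher in LN, 1 was higher in PN and 6 did not pass, with a median log2 difference of 2.22. Egr3 had 49.6, 67.4 and 59.5 CPM in LN and 0.921, 0.666 and 0.667 CPM in PN (log2 difference 6.29, SE 0.19, adjusted p = 1.89e-08), and Egr4 was 39.7-fold higher in LN. Egr2 had 9.15, 11.9 and 12.4 CPM in LN and 0.040, 0.28 and 0.0667 CPM in PN. Arc, whose protein moves glutamate receptors from the synapse, had 286, 265 and 97 CPM in LN, where the third library was lowest, and 19.5, 20.8 and 23 CPM in PN. Fos, the usual marker of recent firing, did not pass, with 16.1, 18 and 12.8 CPM in LN and 14, 15.1 and 15 CPM in PN, nor did Jun, Bdnf, Ier2, Btg2 and Dusp1. The 1 member higher in PN was Jund (log2 difference -0.42, SE 0.10, adjusted p = 0.00827).

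Promoter motifs of 2 kinds, both known from genes that neuronal activity switches on, were counted in these genes, the full cyclic AMP response element (CRE, TGACGTCA, a palindrome) and the CArG box (a palindromic site of serum response factor), in 300 bases each and on both strands. The CRE was found in 4 of 15 immediate early genes with a promoter (26.7%) and in 326 of 10543 genes tested (3.09%). It was in 3 of the 4 that did not pass, in the 1 that was higher in PN and in 0 of the 10 that were higher in LN. The CArG box was found in 2 of these 10 and in 1.21% of the genes tested that had a promoter. Egr3, Arc and Nr4a3, which were higher in LN, and Fos and Jun, which did not pass, had no promoter to read. The split of the CRE by call thus leaves these genes out and was not tested. A promoter of each kind is shown, with the motif in capitals: Egr2 with a CArG box (chr20:21054392-21054691, minus strand) and Dusp1 with a CRE (chr10:17184603-17184902, plus strand).
Egr2: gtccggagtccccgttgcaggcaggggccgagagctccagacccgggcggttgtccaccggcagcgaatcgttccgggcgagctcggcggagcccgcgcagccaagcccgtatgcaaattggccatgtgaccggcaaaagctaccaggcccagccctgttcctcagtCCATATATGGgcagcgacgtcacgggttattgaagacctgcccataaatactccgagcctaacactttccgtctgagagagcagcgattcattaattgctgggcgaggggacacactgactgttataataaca
Dusp1: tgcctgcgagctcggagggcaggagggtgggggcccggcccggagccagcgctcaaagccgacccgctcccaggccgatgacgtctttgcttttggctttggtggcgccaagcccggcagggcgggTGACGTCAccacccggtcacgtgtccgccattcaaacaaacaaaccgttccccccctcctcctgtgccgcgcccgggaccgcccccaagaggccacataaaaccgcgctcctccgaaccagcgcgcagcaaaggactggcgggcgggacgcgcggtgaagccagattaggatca
The CArG box of Egr2 begins 83 bases before the start and the CRE of Dusp1 124 bases before it. A match describes these letters and not a bound site.

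Myelin genes were higher in PN without exception, 24 of 24 tested, with a median log2 difference of -1.10. Mbp, the basic protein of compact myelin, had 14673, 10712 and 9989 CPM in LN and 28628, 28215 and 36199 CPM in PN (log2 difference -1.40, SE 0.18, adjusted p = 1.24e-04). Fa2h, which makes myelin lipids, had 140.2, 119.7 and 108 CPM in LN and 280.5, 313 and 388 CPM in PN. The list summed to 19015 ± 3605 CPM in LN and 50930 ± 4449 CPM in PN (SD, n = 3 each), with Mbp as 61.3% of it. Of 12 genes of oligodendrocyte precursors, 4 were higher in PN and 1 in LN, with a median log2 difference of -0.22. Bcas1 and Enpp6, which mark new oligodendrocytes, were 2.16-fold and 2.25-fold higher in PN. Gpr17, a receptor of committed precursors, had 98.7, 106 and 90.8 CPM in LN and 81.4, 107 and 117 CPM in PN and did not pass.

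Astrocyte genes were mostly higher in PN, 18 of 26 tested, with 3 higher in LN and a median log2 difference of -0.66. Agt, which encodes angiotensinogen, had 181, 108 and 134 CPM in LN and 818, 879.6 and 1172 CPM in PN. Slc6a11, a GABA transporter of astrocytes behind the telencephalon, had 101, 98.2 and 86.8 CPM in LN and 399.8, 441 and 474 CPM in PN. Gfap had 495, 424 and 361 CPM in LN and 1411, 1318 and 1507 CPM in PN. The 3 members higher in LN were Mfge8 and the glutamate transporter genes Slc1a2 and Slc1a3, and Gja1, the gap junction gene connexin 43, did not pass. Astrocyte genes thus differed in both directions.

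**Figure D4:**
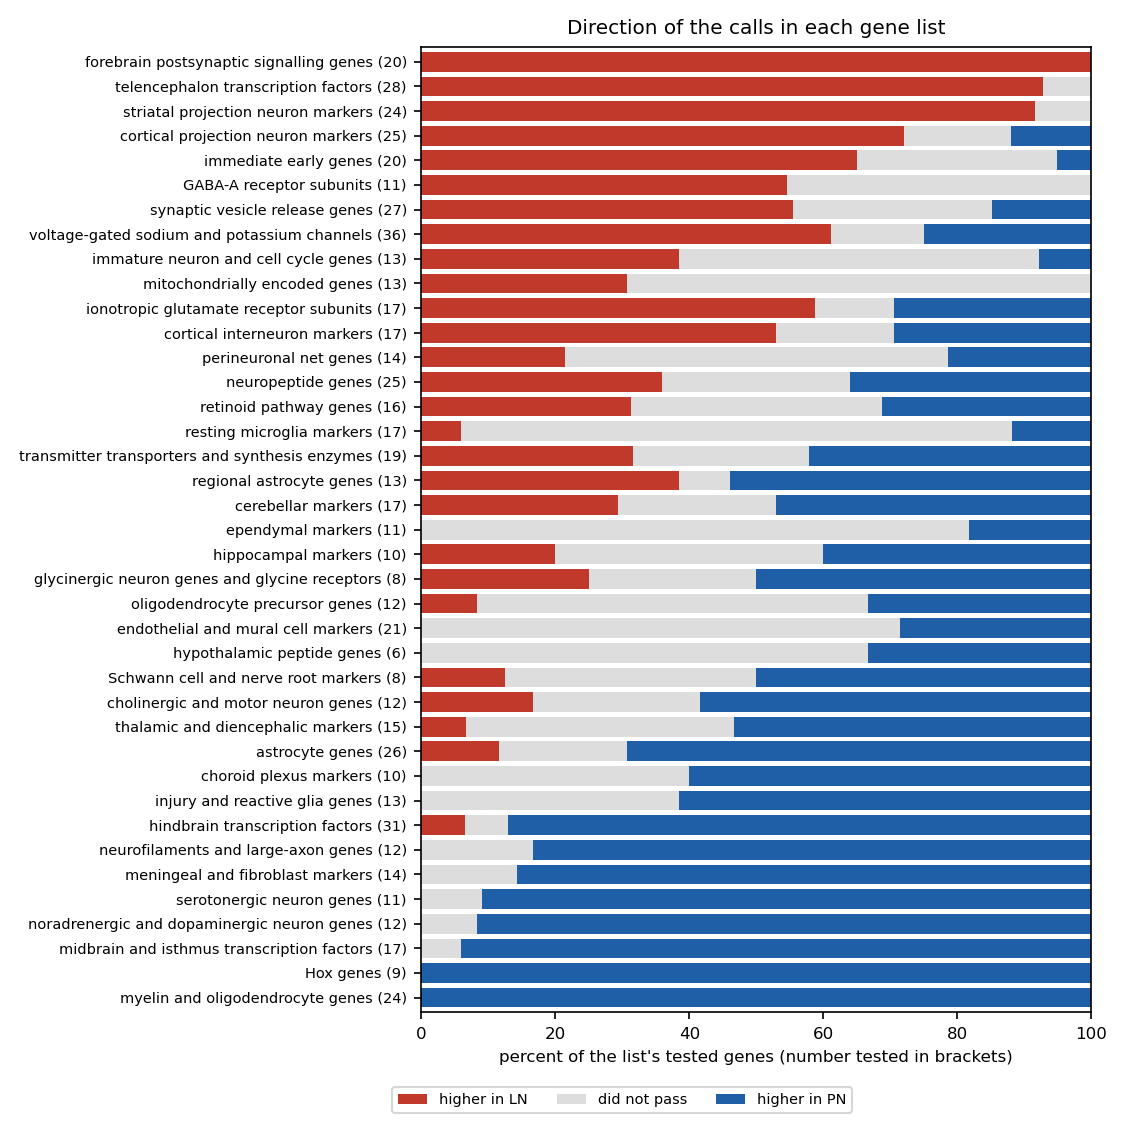
Each bar gives the percent of a list's tested genes that were higher in LN (red), higher in PN (blue) or did not pass (grey), with the number tested in brackets, for the lists with at least 6 tested genes. Bars run from the 20 of 20 postsynaptic genes higher in LN to the 24 of 24 myelin genes higher in PN.

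Microglia and vessel genes mostly did not pass, as did 9568 of all 15933 genes tested. Of 17 microglia markers tested, 14 did not pass, and the median log2 difference was 0.15. By total counts alone, the list summed to 594 ± 41.4 CPM in LN and 606 ± 8.24 CPM in PN (SD, n = 3 each, exact permutation p = 0.7, with 0.1 the smallest possible). The sum was thus slightly higher in PN, whereas the median, which uses the scaling factors, lay on the LN side. Of 21 endothelial and mural markers, 15 did not pass and 6 were higher in PN, the latter beside 19.2% of all genes tested. Without the third LN library or the third PN library only 3 members were called. Cldn5, the tight junction gene of endothelium, had 152, 137 and 120.4 CPM in LN and 137, 136 and 177 CPM in PN and did not pass. The smooth muscle genes Tagln and Myh11 were 2.15-fold and 1.61-fold higher in PN.

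Markers of tissue at the edge of a dissection also moved with the groups. Of 14 meningeal and fibroblast markers, 12 were higher in PN and none was at 0, and the list summed to 333 to 615 CPM in LN and 1426 to 1713 CPM in PN. Igf2, a growth factor of meninges and choroid plexus, had 72.1, 81 and 49.8 CPM in LN and 305, 273 and 284 CPM in PN. Of 10 choroid plexus markers tested, 6 were higher in PN. Ttr, the main choroid plexus transcript, had 2.98, 0.513 and 0.452 CPM in LN and 2.16, 15.6 and 5.84 CPM in PN, and its call was lost by limma voom (adjusted p = 0.0505), without the second PN library or without the second or the third LN library. Of 8 Schwann cell markers, 4 were higher in PN, 1 was higher in LN and 3 did not pass. The 1 higher in LN was Egr2, which is also an immediate early gene. Without the second PN library 3 Schwann cell markers were called in place of 5. The 14 choroid plexus markers matched, 4 of them not tested, summed to 6.3 to 9.48 CPM in LN and 27.5 to 43.3 CPM in PN. The part of these tissues in the differences above was not tested.

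Cerebellar tissue was looked for in the same way. Of 17 markers tested, 8 were higher in PN and 5 in LN. Gabra6, a receptor subunit of cerebellar granule cells, was not tested and had 0.129, 0.256 and 0.376 CPM in LN and 2.68, 0.035 and 0.167 CPM in PN, and only the first PN library was above the LN libraries. Fat2, a cadherin of granule cells, had 17.5, 22.2 and 29.5 CPM in PN and 0.437, 1.32 and 0.301 CPM in LN, with every PN library above every LN library. Of 6 hypothalamic peptide genes, Pmch and Trh were higher in PN, and only 1 was called without the second PN library. Hba1, the haemoglobin gene, did not pass but ranged widely in LN, with 7.97, 70.1 and 48 CPM there and 14.6, 14.7 and 17.1 CPM in PN.

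The remaining lists had members on both sides or few calls. Over all genes tested, 20.7% were higher in LN and 19.2% higher in PN. Counts such as 3 of 14 or 2 of 11 lie near these shares and are no result about their list. Of 15 thalamic and diencephalic markers tested, 8 were higher in PN and 1, the troponin gene Tnnt1, was higher in LN. Of 14 genes of the perineuronal net, the matrix around fast-firing neurons, and of other brain matrix, 3 were higher in each group. Hapln1 was 1.64-fold higher in LN and Hapln2 3.06-fold higher in PN. Of 16 retinoid pathway genes, 5 were higher in each group. The receptor genes Rarb and Rxrg were 8.32-fold and 8.61-fold higher in LN, and Aldh1a1, an enzyme that makes retinoic acid, was 7.01-fold higher in PN. Of 13 genes of immature neurons and the cell cycle, 5 were higher in LN and 1 in PN, with 3 called without the third LN or the third PN library. Of 11 ependymal markers, 2 were higher in PN and 9 did not pass. Of 13 mitochondrially encoded genes, 4 were higher in LN, and 2 were called without the first or the third LN library or the second or the third PN library.

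Libraries of the same group differed, in regional lists and in others. Among the others, the second LN library was the highest of LN for 20 of 27 vesicle release genes and 11 of 12 large-axon genes. The first PN library was the lowest of PN for 21 of 27 and 9 of 12 of them. What set these orders was not tested. The second LN library was the lowest of LN for 23 of 24 striatal genes and the highest for 15 of 25 cortical genes, and also the highest for 12 of 14 meningeal genes. Summed over the striatal list, the LN libraries held 14026, 6879 and 12543 CPM. The first PN library was the lowest of PN for 21 of 31 hindbrain factors and 11 of 17 midbrain and isthmus factors, and the highest for 11 of 14 meningeal genes. For the serotonin list, PN held 264, 666 and 517 CPM. The first LN library was the highest of LN for 18 of 24 myelin genes, and the second LN library was the lowest for 11 of 11 ependymal genes. Without the second LN and the first PN library together, which was tried after seeing these values, 5635 genes were called, of which 5129 were among the 6365. The calls for 145 of the 158 genes chosen by the rule given with the processing that passed were kept when each of the 6 libraries was left out in turn. That rule mostly picks the largest changes, which are the least likely to be lost. Over all 6365 calls, 5009 to 5459 were kept with any 1 library left out.

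**Figure D5:**
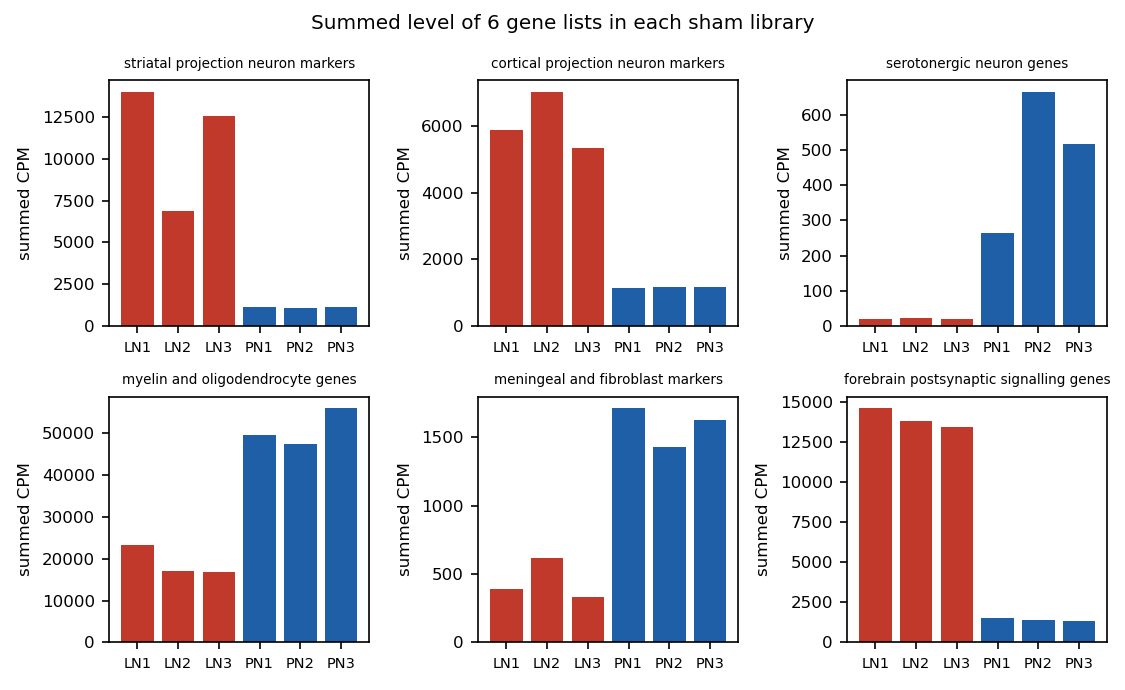
Bars give the summed CPM, scaled by total counts alone, of the genes of 6 lists in each sham library. LN is in red and PN in blue, on axes that start at 0. The second LN library, at 6879 CPM, is the lowest of LN for striatal genes, and the first PN library, at 264 CPM, is the lowest of PN for serotonergic genes, with the groups apart in every panel.

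The same pair of sites was read in the stroke libraries, which share no library with the shams. There the filter also left 15933 genes, of which 15319 were tested in both, and 1324 were called between MCAO and pontine infarction (8.31%), 728 higher in MCAO (4.57%) and 596 higher in pontine infarction (3.74%). Of the genes higher in sham LN, 686 were called higher in MCAO, 20.8% of the sham calls and 94.2% of the MCAO-higher calls. Of those higher in sham PN, 512 were called higher in pontine infarction, 16.7% and 85.9%. The 1 gene called in opposite directions was Cish, an inhibitor of cytokine signalling, singled out after its values were seen, with 7.3, 4.14 and 4.37 CPM in LN, 7.49, 10.6 and 16.3 CPM in PN, 36, 12.9 and 33.3 CPM in MCAO and 5.02, 7.01 and 5.82 CPM in pontine infarction. Its sham call was lost without the third LN or the third PN library. The 1198 calls shared with the shams fell to 221 without the MCAO library of no number, and to 391, 262 and 521 without the first, the second and the third pontine infarction library. The direction was the same for 2954 of 3192 LN-higher and 2552 of 2951 PN-higher genes tested in both.

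Single genes were then read in the stroke libraries, whose CPM were scaled among themselves. Emx1 had 15.5, 25.4 and 40.8 CPM in MCAO and 0.146, 0.0998 and 0 CPM in pontine infarction, a log2 difference of 8.30 (adjusted p = 0.005). Calca was on the other side than in the shams, with 35.9, 11.4 and 24.8 CPM in MCAO and 4.39, 2.0 and 17.4 CPM in pontine infarction, a log2 difference of 1.60 (adjusted p = 0.255) that did not pass. Calb2 had 4.64, 6.11 and 3.8 CPM in MCAO and 205, 234 and 194 CPM in pontine infarction. Hoxb3 had no count in MCAO and 0.976, 1.57 and 2.18 CPM in pontine infarction. Slc6a3 had 0.198, 0.103 and 0.050 CPM in MCAO and 68.1, 115 and 0.0396 CPM in pontine infarction, so that the third pontine infarction library was below every MCAO library, and Slc6a3 was not tested between strokes. Among the lists, 17 of 26 telencephalon factors, 16 of 22 striatal markers, 21 of 28 hindbrain factors and 18 of 24 myelin genes called between shams and tested in the strokes were called in the same direction. The share was lower in other lists, such as 8 of 21 cortical markers, 9 of 21 astrocyte genes, 1 of 12 cerebellar markers and 0 of 8 injury genes. Over all sham calls it was 20.8% of those higher in LN and 16.7% of those higher in PN. The direction alone, called or not, was the same for 13 of 18 neuropeptide genes, 9 of 10 serotonin genes and 6 of 7 catecholamine genes. Of these, 9, 7 and 4 were called. None of the 12 meningeal genes called between shams was called between strokes, though all 12 differed in the same direction.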

How the data were processed

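Total RNA was extracted with Trizol and sequenced, with RNA integrity numbers above 8, per the labels' protocols. The authors deposited 1 table of whole-number counts per gene symbol for the 12 libraries. HISAT2 and the Rnor_6.0 build are named in the submitters' processing notes; the read counter, gene annotation and strand setting were not stated in labels or headers, so overlapping antisense genes cannot be told apart. Counts of the 6 sham libraries were scaled by TMM, filtered with filterByExpr (minimum count 10, minimum total 15) and tested with edgeR 4.0.16 (quasi-likelihood) in R 4.3.3, with Benjamini-Hochberg adjustment over all 15933 genes; the stroke libraries were fitted apart in the same way. limma 3.58.1 (voom) and DESeq2 1.42.0 were alternatives, with other scalings, filters, a fit over all libraries, a 2-fold minimum change and each library left out. The pipeline was tested on simulated data.

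Depth was 22766142 to 40400676 counts per sham library; intervals and floors (3 counts over a group) cover counting error only. A fold against a group with 1 to 3 counts is a ratio of group means with a 95% counting interval. Genes, lists and comparisons were chosen with earlier results of these data known. Genes were named by rule: the 12 largest changes in each direction with at least 5 CPM and no overlap, up to 4 members of each list that passed and 2 that did not, tested Hox genes and a fixed list; others named in the text were chosen with their values known. One of the MCAO count columns carries a code that matches no title's code and was used only as a library of the MCAO group with no number. Same-numbered LN and PN libraries did not deviate together (correlations 0.159, 0.099 and 0.015), so the numbers were not used as pairs. Values of some genes are not reported here.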

Additional observations from a re-analysis of the deposited data

How the results depend on the processing

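The number of genes called between shams was 5152 to 5928 when 1 library was left out, 6124 with the replicate number as a replicate block (3176 higher in LN, 2948 in PN), 3625 over all 12 libraries (1702 and 1923) and 1409 against a 2-fold minimum (867 and 542). The other alternatives gave 5635 to 6690. Of 104 called genes named in the text, 97 kept their call when each library was left out and none reversed under the alternatives run. These genes were mostly picked for large changes. Over all 6365 calls, 5009 to 5459 were kept with any 1 library left out. The 1198 genes called in the same direction in the strokes became 2290 by DESeq2, 327 with a replicate block, 244 against a 2-fold minimum, 221 without the MCAO library of no number and 262 to 1188 without 1 of the others. In the strokes, the block fit also left out the MCAO library of no number and the third pontine infarction library, which have no partner of the same number. The 1324 genes called between strokes became 2979, 365, 249, 226 and 268 to 1607 under the same alternatives. The cause was not tested.

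Of the genes named that did not pass, some changed sign. Without the second LN and the first PN library together, the log2 difference was 0.211 for Ebf1, -0.0522 for Fos, 0.46 for Nkx2-1, -0.0137 for Thy1 and -0.152 for Vsnl1. With total counts, the log2 difference was -0.0481 for Fos, -0.125 for Gja1, -0.0026 for Gpnmb, -0.0875 for Ikzf1, -0.0606 for Jun, -0.0621 for Slc32a1, -0.0664 for Thy1, -0.119 for Vsnl1 and -0.118 for Ier2. Over all 12 libraries, the log2 difference was -0.0674 for Gja1, -0.0281 for Ikzf1, -0.0033 for Jun, -0.0193 for Slc32a1, -0.0112 for Thy1, -0.0545 for Vsnl1 and -0.0643 for Ier2. By limma voom, the log2 difference was 1.13 for Nkx2-1 and -0.415 for Sp8. With a replicate block, the log2 difference was -0.123 for Sp8 and -0.0058 for Ier2. Leaving out 1 library gave -0.795 to 0.0594 for Bdnf, -0.42 to 0.0664 for Ebf1, -0.0199 to 0.219 for Fos, -0.0598 to 0.0913 for Gja1, -0.238 to 0.0526 for Glrb and -0.183 to 0.0472 for Gpr17. It also gave -0.191 to 0.132 for Ier2, -0.026 to 0.12 for Ikzf1, -1.87 to 0.0305 for Nkx2-1, -0.0958 to 0.24 for Slc32a1, -0.573 to 0.731 for Sp8 and -0.177 to 0.197 for Vsnl1. The log2 ratio of summed CPM was -0.0055 for hippocampal and -0.0315 for cerebellar markers without the highest member.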
